A study of Mus musculus with 11 samples.

Results

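The 42 genes described here encode the machinery with which a cell enters mitosis, attaches and separates its chromosomes and divides its cytoplasm. They were taken as a list of G2/M, spindle and cytokinesis genes, chosen with earlier results of these data known. Their counts set beside those of the whole array are therefore descriptions. Expression was followed in splenic dendritic cells from lymphoma-bearing mice and from naive mice, and 40 of the 42 genes could be measured, out of 22180 genes on the array. Ccnb1, which encodes cyclin B1, had no probeset naming it alone, and Ncapg, a condensin subunit, was only on a probeset naming several genes, so neither was analysed here. Each of the 40 had 1 probeset.

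The exposed group held 5 arrays, of C57BL/6 mice that had received Eµ-Myc lymphoma cells, a B cell lymphoma in which an immunoglobulin heavy chain enhancer drives the Myc oncogene. Tumour cells were on average 10-36% of the lymphocytes in those spleens, so tumour load varied, and the load of each mouse is not in the labels. The naive group held 6 arrays of C57BL/6 mice. No other genetic change or treatment is given for either group, nor age or sex. In both, CD11c+ MHC class II+ splenic dendritic cells had been sorted to a purity above 95%, and total RNA was hybridised to 1-colour Affymetrix arrays. Levels are the log2 values the authors deposited, background-corrected and normalised between arrays by RMA, and every difference is on that log2 scale, exposed minus naive unless another direction is named. The design asks what exposure to the lymphoma changes in these dendritic cells. Whether the arrays of a group come from separate mice is not stated, so the p-values measure the spread between samples, which may be partly technical, and the number of arrays limits the precision. In such bulk RNA, more dividing cells and more mitotic RNA per cell cannot be told apart.

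Most splenic conventional dendritic cells arise from precursors that still divide, and some of the cells in the spleen itself are still in cycle. Genes of the mitotic programme are switched on together late in the cell cycle. Activators that include B-MYB and FOXM1 act through a short promoter element called the cell cycle genes homology region, often with NF-Y bound to CCAAT boxes beside it, and in resting cells the DREAM complex represses many of the same promoters. Cyclin-dependent kinase and Polo and Aurora kinases then drive entry into mitosis, the spindle assembly checkpoint delays chromosome separation until kinetochores are attached, and the anaphase-promoting complex ends mitosis by marking its regulators for destruction.

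Because these genes are known to share promoter elements, the promoters of 4 of them are shown, those of Plk1 and Cdc20, which had the largest differences between the groups, and of the catalytic and cyclin subunits Cdk1 and Ccnb2. The windows run from 250 bases before to 50 bases after the start of the gene in RefSeq on GRCm38.p6. They lie at chr7:122159185-122159484 on the plus strand (Plk1), chr4:118437294-118437593 on the minus strand (Cdc20), chr10:69352863-69353162 on the minus strand (Cdk1) and chr9:70421505-70421804 on the minus strand (Ccnb2). Capitals mark the homology region TTTGAA and the CCAAT box, which reads ATTGG on the other strand.
Plk1: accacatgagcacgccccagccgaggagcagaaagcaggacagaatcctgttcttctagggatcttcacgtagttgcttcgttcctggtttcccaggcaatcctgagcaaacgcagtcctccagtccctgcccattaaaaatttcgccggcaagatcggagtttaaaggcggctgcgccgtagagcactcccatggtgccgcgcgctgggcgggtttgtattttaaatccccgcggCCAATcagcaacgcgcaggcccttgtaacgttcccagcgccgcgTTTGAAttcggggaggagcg
Cdc20: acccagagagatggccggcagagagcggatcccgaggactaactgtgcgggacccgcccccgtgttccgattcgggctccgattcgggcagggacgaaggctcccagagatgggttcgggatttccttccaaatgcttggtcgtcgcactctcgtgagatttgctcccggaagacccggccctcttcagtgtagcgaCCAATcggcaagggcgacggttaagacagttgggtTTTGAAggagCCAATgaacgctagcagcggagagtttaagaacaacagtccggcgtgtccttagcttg
Cdk1: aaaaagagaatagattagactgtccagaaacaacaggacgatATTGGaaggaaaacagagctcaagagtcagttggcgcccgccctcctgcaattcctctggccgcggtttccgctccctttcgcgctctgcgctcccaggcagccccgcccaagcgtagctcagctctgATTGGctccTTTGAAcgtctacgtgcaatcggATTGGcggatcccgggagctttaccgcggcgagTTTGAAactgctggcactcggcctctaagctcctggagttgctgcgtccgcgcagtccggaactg
Ccnb2: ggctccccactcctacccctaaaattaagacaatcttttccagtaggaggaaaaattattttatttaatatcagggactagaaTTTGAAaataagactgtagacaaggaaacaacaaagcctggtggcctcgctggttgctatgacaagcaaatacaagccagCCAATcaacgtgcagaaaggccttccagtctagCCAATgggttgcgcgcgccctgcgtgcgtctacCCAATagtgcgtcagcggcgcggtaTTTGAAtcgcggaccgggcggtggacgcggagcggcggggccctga

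In all, 36 of the 42 genes had a promoter in the RefSeq table, and Aurkb, Ccna2, Foxm1, Incenp, Kif20a and Tpx2 had none. Both strands were searched. TTTGAA was found in 29 of the 36 windows (80.6%), against 18.1% of the 27025 promoters in the table and 16.5% of the 17491 protein-coding ones. A CCAAT box was found in 77.8% of the 36 windows and 37.9% of all windows, and at least 2 CCAAT boxes in 52.8% and 12.2%. Both motifs were present in 69.4% of the windows of the mitosis genes and in 7.1% of all windows. The variant TTTAAA, which the unmeasured Ccnb1 has in place of TTTGAA, was in 25.0% against 13.2%. E2F letters, typical of replication genes, were in 19.4% against 9.7%. They were searched as TTCCCGC, in the form TTCGCGC, in the form TTGCCGC and finally as TTGGCGC. In the 36 windows, TTTGAA and CCAAT overlapped in 1 place, E2F letters overlapped another motif in 2 places, and TTTGAA and TTTAAA in 0.

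Of the 36 TTTGAA matches in these genes, 29 (80.6%) began between 100 bases before the start and the end of the window, against 41.3% of the 5632 matches in all promoters. For CCAAT the shares were 67.7% of 65 matches and 54.2% of 14907. In 4 genes, Birc5, Mad2l1, Nuf2 and Nusap1, neither motif was found in this window. Of the measured genes with a window, 11 of 28 with TTTGAA and 4 of 6 without it were called higher in exposed cells, and the median log2 differences were 0.43 with and 0.46 without it.

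**Figure D1:**
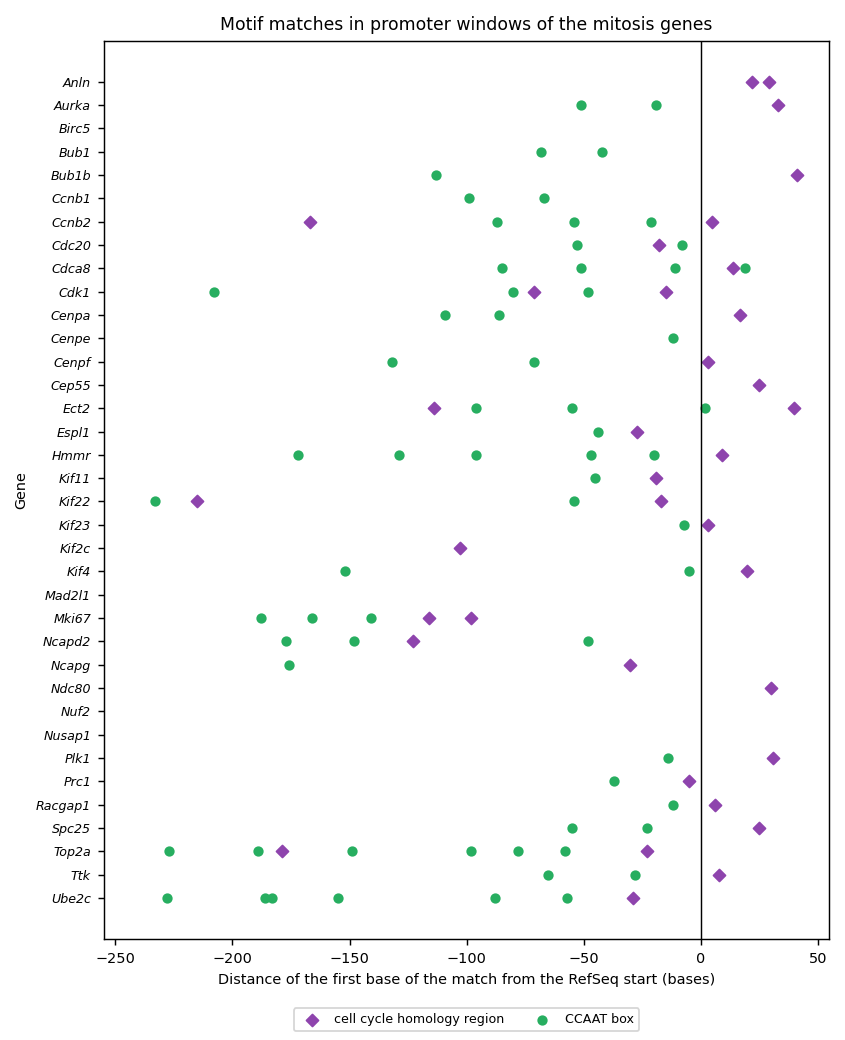
Position of motif matches in the promoter windows of the 36 mitosis genes that have one. The x axis is the distance in bases of the match's first base from the RefSeq start, diamonds are cell cycle homology regions and circles CCAAT boxes. Of the 36 homology regions, 29 lie within 100 bases before the start or after it, and 4 genes have neither motif.

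All 40 measured genes were higher on average in lymphoma-exposed than in naive dendritic cells, by modest amounts. With limma over all genes and Benjamini-Hochberg adjustment, 17 of the 40 were called higher at an adjusted p under 0.05 and 0 lower. Across the array, 0.879% of all genes were called higher and 0.546% lower. The called genes rose 1.33-fold to 1.49-fold. Another 15 had an adjusted p between 0.05 and 0.1, and 39 of the 40 had an unadjusted p under 0.05, all with a positive difference. Of all 22180 genes, 1590 were higher and 1120 lower at an unadjusted p under 0.05 with limma. The median log2 difference of the 40 genes was 0.45, against 0.008 over all genes, of which 53.5% had a positive difference.

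The count of 17 depended on single arrays more than the differences did. It was 6, 7, 9, 7 and 8 without naive arrays 1, 2, 3, 5 and 6, and 17 without naive array 4. It was 31, 5, 9, 11 and 14 without exposed arrays 1, 2, 3, 4 and 6. Calls over the whole array moved too, from 195 genes higher with all arrays. They were 100, 111, 102, 139, 92 and 98 without naive arrays 1, 2, 3, 4, 5 and 6. They were 221, 68, 129, 149 and 232 without exposed arrays 1, 2, 3, 4 and 6. In each of these 11 fits all 40 differences stayed positive. Plk1, Foxm1, Cdc20, Ube2c and Anln passed in all 11, and every other called gene lost its call in at least 1.

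Averaged over the 40 genes, the log2 level was 8.68, 9.05, 8.87, 8.89 and 9.16 in exposed arrays 1, 2, 3, 4 and 6, against 8.39, 8.39, 8.52, 8.69, 8.52 and 8.56 in naive arrays 1 to 6. The group means were 8.93 ± 0.18 (SD, n = 5) in exposed and 8.51 ± 0.11 (SD, n = 6) in naive cells. Exposed array 1 lay just below naive array 4, and the other exposed arrays were higher than every naive array. The pattern was shared by most genes. Exposed array 1 was the lowest exposed array for 37 of the 40, exposed array 6 the highest for 29 and exposed array 2 for the other 11, while naive array 4 was the highest naive array for 27. The groups were fully apart, with each of the 5 exposed values over each of the 6 naive values, in 16 of the 40 genes, where 1.42% of the whole array showed this. In 0 of the 40 they were apart the other way, against 0.875% of the whole array.

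**Figure D2:**
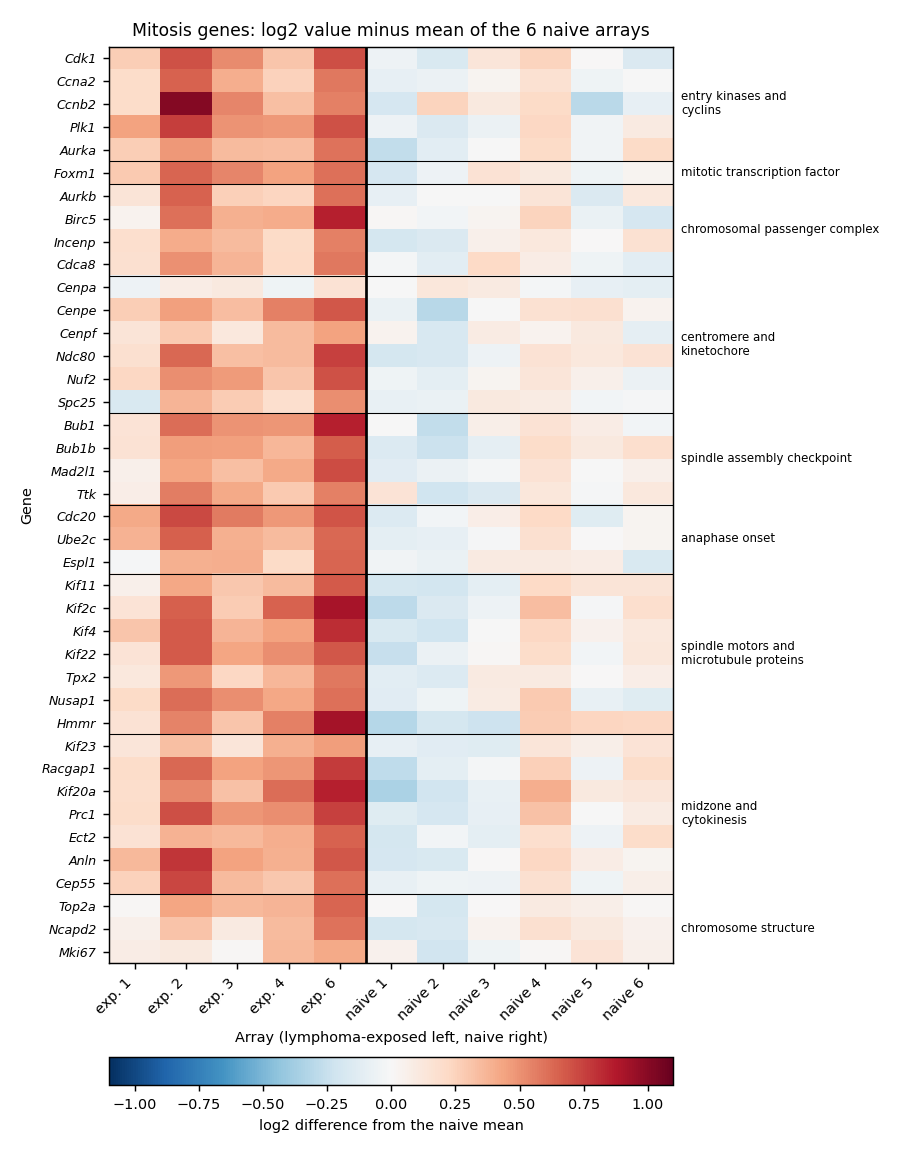
Each cell is the log2 value of a gene (rows, by role) on an array (columns, 5 exposed on the left and 6 naive on the right) minus the gene's mean over the 6 naive arrays. Exposed arrays 2 and 6 are reddest down most rows, exposed array 1 is palest, and the row of Cenpa is pale throughout.

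Among the kinases and cyclins of mitotic entry, 4 of 5 measured genes were called higher. Plk1 (probeset 17482739), the Polo-like kinase that acts from entry to cytokinesis, had log2 levels of 9.65, 9.97, 9.71, 9.69 and 9.91 in exposed arrays 1, 2, 3, 4 and 6, against 9.05 to 9.43 in naive arrays (median 9.16). The groups did not overlap, and the difference was 0.58 ± 0.08 (SE, adjusted p = 0.00418, limma). Cdk1 (probeset 17241692), the kinase that starts mitosis, had 7.98, 8.42, 8.23, 8.02 and 8.42 in exposed arrays, against 7.54 to 7.96 in naive arrays (median 7.69). Its lowest exposed array lay just above its highest naive array, and the difference was 0.50 ± 0.10 (SE, adjusted p = 0.0284). Ccna2, cyclin A2, rose by 0.41 ± 0.08 (SE, adjusted p = 0.0252), and Aurka, the Aurora kinase of the spindle poles, by 0.41 ± 0.09 (SE, adjusted p = 0.0450). In both the groups did not overlap. Ccnb2, cyclin B2, did not pass the test at 0.53 ± 0.14 (SE, adjusted p = 0.0805). Its exposed arrays varied more, with 9.08, 9.89, 9.41, 9.21 and 9.43 against 8.58 to 9.12 in naive arrays (median 8.89), and its deviations followed those of the other genes less closely than most.

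Foxm1 (probeset 17463401), the forkhead transcription factor that activates late cell cycle genes, rose by 0.50 ± 0.08 (SE, adjusted p = 0.00866). Its levels were 8.13, 8.48, 8.39, 8.29 and 8.45 in exposed arrays, against 7.66 to 8.01 in naive arrays (median 7.83), without overlap.

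Of the chromosomal passenger complex, which corrects faulty attachments and later acts at the midzone, 0 of 4 genes passed the test, and their differences were 0.34 to 0.46. Its kinase Aurkb differed by 0.38 (adjusted p = 0.0737), the scaffold Incenp by 0.34 (adjusted p = 0.0662) and Cdca8, borealin, by 0.37 (adjusted p = 0.0538). Birc5, survivin, differed by 0.46 (adjusted p = 0.0863), and its exposed levels of 7.06, 7.63, 7.41, 7.43 and 7.87 ranged widely against 6.84 to 7.27 in naive arrays (median 7.01). Exposed array 1 lay inside the naive range for Birc5, and the other exposed arrays above it.

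At centromeres and kinetochores, 2 of 6 genes were called higher. Nuf2 (probeset 17229433), a subunit of the NDC80 complex that binds microtubules, rose by 0.44 ± 0.08 (SE, adjusted p = 0.0174), and the kinetochore motor Cenpe by 0.46 ± 0.09 (SE, adjusted p = 0.0291). Nuf2 had levels of 8.93, 9.21, 9.17, 9.01 and 9.41 in exposed arrays, against 8.60 to 8.84 in naive arrays (median 8.70). Its partners in the same complex did not pass, Ndc80 at 0.45 (adjusted p = 0.0566) and Spc25 at 0.24 (adjusted p = 0.345). Spc25 was lower in exposed array 1 (7.20) than in any naive array (7.29 to 7.48, median 7.35), and its other exposed levels of 7.75, 7.66, 7.56 and 7.89 were above them. Cenpf, which binds kinetochores in late G2, differed by 0.27 (adjusted p = 0.114).

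Cenpa, the histone H3 variant that marks the centromere, had the smallest difference of the 40 genes, 0.05, with 95% limits of -0.08 to 0.18 and an adjusted p of 0.825. Its levels were 8.45, 8.58, 8.61, 8.45 and 8.66 in exposed arrays, against 8.39 to 8.62 in naive arrays (median 8.49). The groups overlapped almost completely. Its deviations also followed those of the other 39 genes least, as described below.

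Of the spindle assembly checkpoint genes, 1 of 4 was called higher. Bub1, a checkpoint kinase at the kinetochore, rose by 0.52 ± 0.11 (SE, adjusted p = 0.0318), with levels of 8.48, 8.95, 8.83, 8.82 and 9.19 in exposed arrays, against 8.07 to 8.50 in naive arrays (median 8.36). Exposed array 1 lay a little under the highest naive array. Bub1b, which encodes the checkpoint protein BUBR1, differed by 0.42 (adjusted p = 0.0601), Mad2l1, the MAD2 inhibitor of CDC20, by 0.39 (adjusted p = 0.0626), and the kinase Ttk by 0.38 (adjusted p = 0.0840), none passing the test.

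Of the genes for anaphase onset, 2 of 3 were called higher. Cdc20 (probeset 17429177), the activator of the anaphase-promoting complex, had levels of 8.77, 9.08, 8.92, 8.83 and 9.04 in exposed arrays, against 8.20 to 8.57 in naive arrays (median 8.35). The groups did not overlap, and the difference was 0.58 ± 0.08 (SE, adjusted p = 0.00418). Ube2c (probeset 17379523), the ubiquitin-conjugating enzyme of that complex, had 9.40, 9.67, 9.41, 9.37 and 9.65 in exposed arrays, against 8.91 to 9.19 in naive arrays (median 9.01). It rose by 0.48 ± 0.07 (SE, adjusted p = 0.00721), also without overlap. Espl1, the separase that cuts cohesin, differed by 0.33 (adjusted p = 0.148).

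Among spindle motors and microtubule-associated proteins, 3 of 7 were called higher. Kif4 and Kif22, chromosome-bound kinesins, rose by 0.52 ± 0.10 (SE, adjusted p = 0.0269) and 0.49 ± 0.10 (SE, adjusted p = 0.0309), and Nusap1, which bundles spindle microtubules, by 0.47 ± 0.09 (SE, adjusted p = 0.0221). Kif4 had levels of 7.68, 8.05, 7.75, 7.82 and 8.19 in exposed arrays, against 7.16 to 7.60 in naive arrays (median 7.40), with no overlap. The others did not pass. Kif2c, a kinesin that shortens microtubules, had a difference of 0.53, larger than Kif4, but an adjusted p of 0.0840, and Hmmr, a spindle pole protein, had 0.50 with an adjusted p of 0.132. Both had wide groups. Hmmr ran from 7.08 to 7.84 in exposed arrays (median 7.47), against 6.61 to 7.20 in naive arrays (median 6.94). The bipolar motor Kif11 differed by 0.36 (adjusted p = 0.145) and Tpx2, which activates Aurora A on the spindle, by 0.35 (adjusted p = 0.0566).

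For the midzone and cytokinesis, 4 of 7 genes were called higher. Anln (probeset 17524969), the anillin scaffold of the contractile ring, had levels of 8.16, 8.58, 8.24, 8.19 and 8.48 in exposed arrays, against 7.61 to 8.03 in naive arrays (median 7.82). It rose by 0.53 ± 0.09 (SE, adjusted p = 0.0174), with the groups apart. Prc1, which bundles antiparallel midzone microtubules, rose by 0.53 ± 0.11 (SE, adjusted p = 0.0273), Racgap1, the GTPase-activating subunit of centralspindlin, by 0.51 ± 0.11 (SE, adjusted p = 0.0395), and Cep55, which recruits the abscission machinery, by 0.45 ± 0.09 (SE, adjusted p = 0.0250). Kif23, the motor subunit of centralspindlin, did not pass at 0.29 (adjusted p = 0.0930). Ect2, the exchange factor that activates RhoA at the cell equator, differed by 0.39 (adjusted p = 0.0529) and the midzone kinesin Kif20a by 0.50 (adjusted p = 0.0997).

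Of the chromosome structure genes, 0 of 3 measured passed the test, and their differences were 0.19 to 0.36. Top2a, the topoisomerase that untangles sister DNA, differed by 0.36 (adjusted p = 0.0731), and the condensin subunit Ncapd2 by 0.28 (adjusted p = 0.230). Mki67, which encodes the proliferation marker Ki-67 that coats mitotic chromosomes, differed by 0.19 (adjusted p = 0.339), with 95% limits of 0.02 to 0.37. Its levels were 11.01, 11.04, 10.94, 11.29 and 11.35 in exposed arrays, against 10.72 to 11.08 in naive arrays (median 10.96). Exposed arrays 4 and 6 lay above the naive arrays and the other exposed arrays among them.

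**Figure D3:**
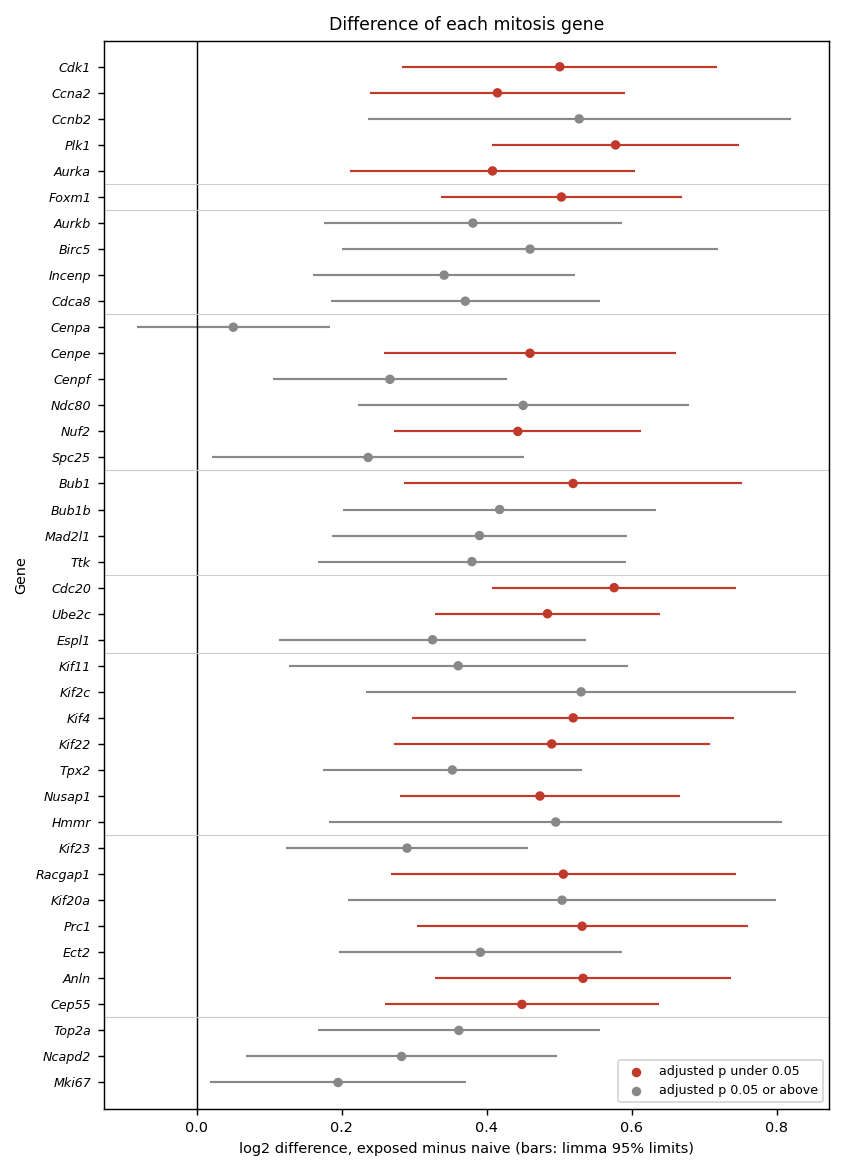
Log2 difference, exposed minus naive, of each of the 40 measured genes with limma's 95% limits, ordered by role from mitotic entry at the top to chromosome structure at the bottom. All 40 points lie right of 0, the 17 coloured ones passed the adjusted test, and Cenpa alone has limits that include 0.

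Across the arrays the genes varied as a group also within each condition. After group means were removed, the median correlation between 2 of the 40 genes over the 11 arrays was 0.724, with 98.5% of 780 pairs above 0, against a median of 0.007 and 50.8% of pairs for all genes. These values describe the arrays, which the genes share. The correlation of a gene with the mean of the other 39 had a median of 0.865 and was highest for Kif4 (0.960) and Prc1 (0.957). It was lowest for Cenpa (0.225), Ccnb2 (0.466) and Mki67 (0.471).

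The arrays also differed by number, 1 to 3 against 4 to 6, for which the labels give no reason. After group means were removed, the correlation over all genes between an exposed and a naive array averaged 0.127 for the 15 pairs from the same number set, 13 of them above 0, and -0.127 for the 15 pairs from different sets, 1 of them above 0. Removing group means makes a positive average on one side force a negative average on the other, so the second value adds nothing to the first. The split had been found in an earlier look at these data, so a block for it was not chosen independently of them. With this number set as a block, 32 of the 40 genes were called higher, among them all 17, where 1.65% of all genes were. Taken separately, arrays 1 to 3 gave a median difference of 0.47 for the 40 genes and arrays 4 to 6 a median of 0.42. All 40 differences were positive within arrays 4 to 6 and 39 within arrays 1 to 3, where Cenpa was at -0.03. Each number set by itself is small, and 0 of the 40 genes passed the adjusted test in either with limma. Of all genes, 7 were called higher within arrays 1 to 3 and 2 within arrays 4 to 6. At an unadjusted p under 0.05 there were 35 of the 40 within arrays 1 to 3 and 39 within arrays 4 to 6. No count over all genes is given at that threshold, so these 2 counts cannot be weighed against the whole array. A term for a different response in the number sets had an unadjusted p under 0.05 for 0 of the 40 genes, the lowest being 0.104 for Mki67, and for 943 of all genes.

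The genes also differed between the number sets themselves. Arrays 4 to 6 were higher than arrays 1 to 3 for 37 of the 40, with a median difference of 0.14, against -0.01 over all genes, of which 46.3% were higher. In that comparison 6 genes were called, Hmmr (0.45, adjusted p = 0.0143), Kif20a (0.41, adjusted p = 0.0199), Kif11 (0.30, adjusted p = 0.0445), Cenpe (0.26, adjusted p = 0.0413), Kif23 (0.23, adjusted p = 0.0185) and Mki67 (0.22, adjusted p = 0.0445), all with limma, where 2.64% of all genes were called higher in arrays 4 to 6.

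**Figure D4:**
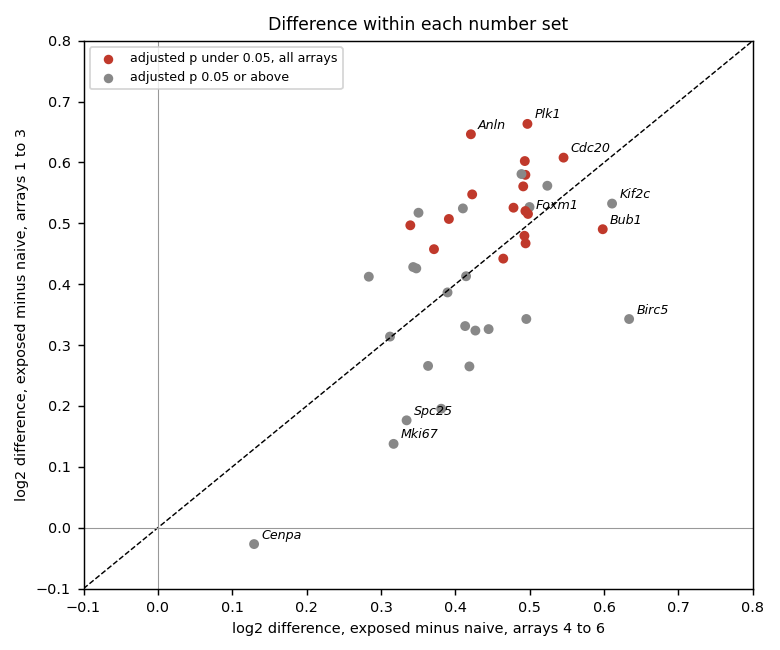
Each point is a gene. The x axis is the log2 difference, exposed minus naive, within arrays 4 to 6 and the y axis the same within arrays 1 to 3. The dashed line marks equal values. Points spread along it, Anln and Plk1 above and Birc5 below, and Cenpa alone is under 0 on the y axis.

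Other genes of the mitotic pathway were read in the same fit. Of 131 measured genes beyond the 40, 15 were called higher and 0 lower with limma, 116 had a positive difference, and the median was 0.19. The spindle, centrosome and kinesin genes held 7 of these calls among 31, led by the kinesin Kif18b (0.53, adjusted p = 0.0275), Ckap2 (0.50, adjusted p = 0.0389) and Dlgap5 (0.46, adjusted p = 0.0289). Mitotic entry held 3 among 19, the kinases Melk (0.45), Nek2 (0.42) and Wee1 (0.38). Wee1 restrains CDK1 and so acts against entry. Cytokinesis held 3 among 15, Depdc1a (0.57), Shcbp1 (0.52) and the microtubule-destabilising Stmn1 (0.35). The centromere and kinetochore list held 1 among 28, Spdl1 (0.50), a recruiter of dynein, and condensin and cohesin 1 among 16, Cdca5 (0.36), which encodes sororin. Of the 22 checkpoint and anaphase-promoting complex genes 0 passed with limma (6 at an unadjusted p under 0.05), and their median difference was 0.07. The largest difference there was 0.29 for the inhibitor Fbxo5 (adjusted p = 0.299). The 15 calls became 30, 1, 5, 8 and 9 without exposed arrays 1, 2, 3, 4 and 6 in turn. They became 3, 3, 3, 12, 4 and 5 without naive arrays 1, 2, 3, 4, 5 and 6 in turn.

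Genes of DNA replication, which come on earlier in the cycle, showed a median difference of 0.21, with 37 of 38 positive and 3 called higher. These were the ribonucleotide reductase subunit Rrm2 (0.44, adjusted p = 0.0304), Mcm10 (0.37, adjusted p = 0.0233), which helps to start forks, and thymidine kinase Tk1 (0.35, adjusted p = 0.0347). The count was 0 without naive array 1, 2, 5 or 6 or exposed array 2 or 3, and 1 without naive array 3 or exposed array 6. Of 15 genes that restrain the cell cycle, 8 had a positive difference, with a median of 0.03. Cdkn2b, an inhibitor of the G1 cyclin-dependent kinases, was the only one called, 0.42 higher in exposed cells (adjusted p = 0.00261). Its levels were 7.68, 7.67, 7.69, 7.68 and 7.67 in exposed arrays, against 7.14 to 7.34 in naive arrays (median 7.26), so the exposed arrays were nearly equal. Together the mitosis and replication lists, with 209 measured genes of the 22180, held 35 of the 195 genes called higher on the whole array (17.9%). The lists were chosen with earlier results of these data known, so this share is a description.

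Markers of other cell types that a spleen sort could hold were set beside these values. Of the B lineage markers, which would also mark the lymphoma, 13 of 15 were measured, and their mean level ran from 6.77 to 7.13 in exposed arrays and from 6.89 to 7.10 in naive arrays. Among them 0 were called higher with limma and 1 lower, Cd22 (-0.54, adjusted p = 0.0238). At an unadjusted p under 0.05, 2 were higher and 3 lower. The surrogate light chain genes Vpreb1 and Igll1 were at 4.02 and 4.73 in exposed cells and 4.09 and 4.70 in naive cells, under 5.60, the level below which 95% of olfactory receptor genes lay and which served as a mark for dim genes. Cd79a, part of the B cell receptor, differed by 0.36 (adjusted p = 0.452), with its highest level in exposed array 1, the array where the mitosis genes were lowest of the exposed arrays. With the B cell marker mean as a covariate 22 of the 40 mitosis genes were called, all 17 among them. Their median difference was then 0.40, against 0.45 without it. That fit called 257 of all genes higher, against 195 without it.

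Erythroid precursors also divide in the spleen. Of 10 markers 6 were measured and 0 called with limma (0 also at an unadjusted p under 0.05), with means of 5.55 to 5.96 in exposed arrays and 5.49 to 5.63 in naive arrays, and the erythroid factor gene Klf1 was at 5.36 in exposed and 5.42 in naive cells, under the mark. With the erythroid mean as a covariate 18 of the 40 mitosis genes were called, 13 of them among the 17, and 112 of all genes were called higher. The median difference of the 40 was then 0.50, against 0.45 without it. Of 10 neutrophil and precursor markers 0 were called (1 at an unadjusted p under 0.05), with means of 4.87 to 5.09 in exposed and 4.82 to 4.97 in naive arrays. The precursor genes Elane and Mpo were at 5.63 and 5.81 in exposed cells and 5.52 and 5.87 in naive cells. All 40 mitosis genes lay above the mark.

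Markers of red pulp macrophages varied most. All 10 were measured and 0 called with limma (5 higher at an unadjusted p under 0.05), but their mean was 10.79 and 9.75 in exposed arrays 1 and 2 and 8.70 to 8.90 in the other exposed arrays, against 8.18 to 9.39 in naive arrays. Exposed array 1 was thus the highest for these markers and the lowest exposed array for the mitosis genes. Exposed array 2 was high among the exposed arrays for both, at 9.75 for these markers and 9.05 for the mitosis genes. With the macrophage mean as a covariate, an alternative chosen after the arrays had been seen, 29 of the 40 genes were called, all 17 among them, and the median difference was 0.51, against 0.45 without it. That fit called 188 of all genes higher.

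Monocyte markers averaged 8.42 ± 0.14 in exposed cells and 8.21 ± 0.12 in naive cells (SD, n = 5 and 6). Of these 7 markers 1 was called higher, the chemokine receptor gene Cx3cr1 (0.46, adjusted p = 0.00866, limma). Of 8 measured T and NK cell markers 1 was called higher and 0 lower, the NK cell receptor gene Ncr1 (0.46, adjusted p = 0.0289, limma). Ncr1 was at 6.18 in exposed and 5.72 in naive cells, near the mark for dim genes, 5.60. The differences of the 8 ran from -0.48 to 0.46, with 5 positive. At an unadjusted p under 0.05, 4 were higher and 1 lower. Of 5 plasma cell markers 0 were called (2 at an unadjusted p under 0.05) and of 7 plasmacytoid dendritic cell markers 0 (1). The 14 measured markers of conventional dendritic cells averaged 10.82 to 10.99 in exposed arrays and 10.95 to 11.11 in naive arrays. Of these 14, 0 were called higher and 2 lower with limma, Cd209a (-1.02, adjusted p = 0.00345) and Clec4a4 (-0.43, adjusted p = 0.0250), markers of type 2 cells. Irf4, Sirpa and Itgam, on the same list, were not called. At an unadjusted p under 0.05, 1 of the 14 was higher and 4 lower. The median difference of the list was -0.07, and 4 were positive. Itgax, which encodes CD11c, was at 11.98 in exposed and 12.11 in naive cells. Whether the makeup of the sorted cells had a part in the mitosis genes' differences was not tested beyond the covariates given.

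**Figure D5:**
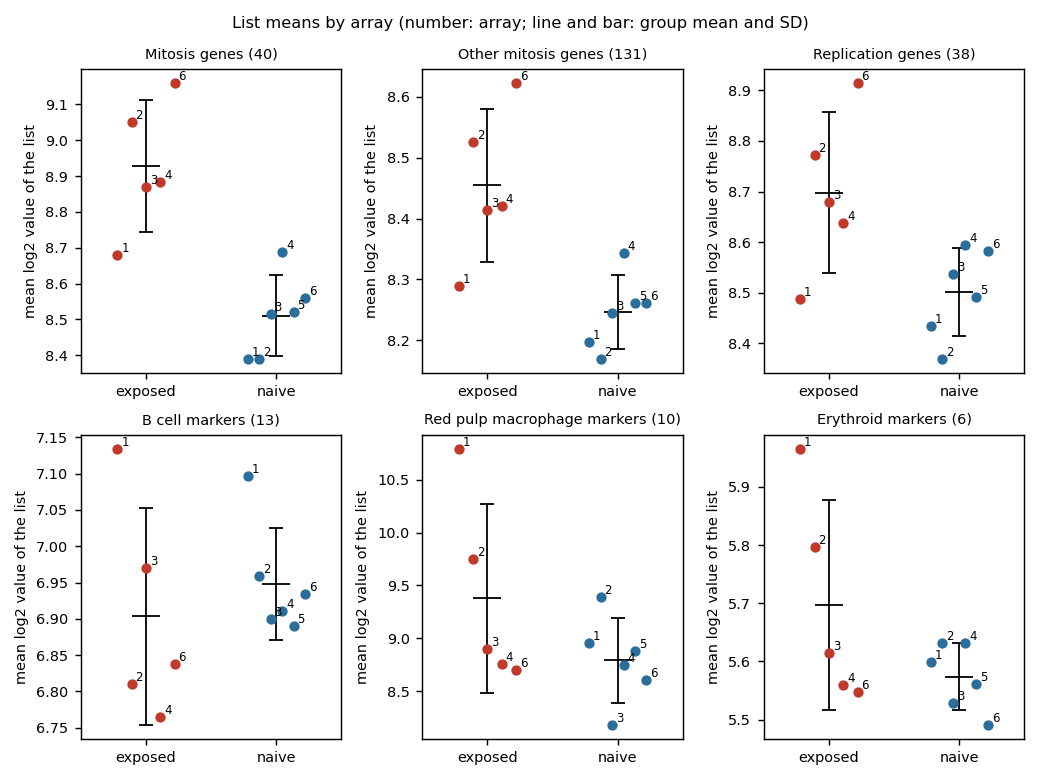
Mean log2 level of 6 gene lists on each array, exposed on the left and naive on the right, with numbers for arrays and black lines for the group mean and SD; the y axes differ and do not start at 0. Exposed arrays 2 and 6 are highest in the 3 cell cycle lists, and exposed array 1 is highest in the 3 marker lists.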

How the data were processed

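The authors deposited log2 expression values, 1 per probeset and array, made with RMA per the submitters' processing notes, a method that corrects background, normalises between arrays and summarises probes. Its version, the scanner files and the genome build are not given in the sources used here. Of 41801 probesets, 7329 were blank on every array. The platform table names 1 gene for 23521 of the rest, several for 1814 and none for 9137. For each gene the probeset with the highest mean over the 11 arrays was used, and no dim gene was removed. Array medians were 5.53 to 5.61.

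Differences are exposed minus naive, from limma 3.58.1 in R 4.3.3 (lmFit, eBayes with trend) on all 11 arrays and 22180 genes, with Benjamini-Hochberg adjustment over all of them and a threshold of 0.05. The fit was tested on simulated data. The genes and lists were chosen with earlier results of these data known, so no test over a list was made. Named were all measured members, and of each other list the called genes with the largest differences (up to 3 or 4 a direction, else the largest), called markers and fixed checks. Alternatives were other moderation, scaling, filters, probeset choices, blocks and covariates, and each array left out.

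The last exposed array is numbered 6 in its title and 5 in another label, and the title number is used here. Same-numbered arrays of the 2 groups, after removing group means, correlated at 0.0880 to 0.231. All pairs from the same number set ran from -0.0724 to 0.242. Of the 5 exposed arrays, 2 correlated best with their own number. These values cannot tell whether numbers pair the arrays, and the main fit did not pair them. Promoters and their build come from RefSeq.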

Additional observations from a re-analysis of the deposited data

Results flagged for a closer look

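In 6 of the 192 groups of 5 or 6 arrays examined, 1 array lay far from the others by Dixon's criterion, which chance alone meets in about 1 group of 20. Of the mitosis genes measured, this held for Top2a, where naive array 2 was low at 9.85 and the other naive arrays were at 10.04 to 10.14. Naive array 4 was high for Spdl1, at 7.87 against 7.53 to 7.62 in the other naive arrays, and for Rrm2, at 9.20 against 8.99 to 9.04. Exposed array 2 was low for the B cell precursor marker Vpreb1, at 3.81 against 4.06 to 4.09 in the other exposed arrays. Naive array 2 was high for the granulocyte precursor marker Mpo, at 6.01 against 5.83 to 5.87. The mean of the B cell markers was high in naive array 1, at 7.10 against 6.89 to 6.96 in the other naive arrays.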

How the results depend on the processing

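All 40 mitosis genes kept a positive difference in each of the 28 alternatives but 1, arrays 1 to 3 alone, where Cenpa was at -0.0269. The counts of calls moved more. The main counts were 17 of the 40 mitosis genes, 15 of the other mitosis genes and 3 of the replication genes. Median centring gave 10, 5 and 1. Leaving out genes under the olfactory receptor mark, which tests 12646 genes, gave 26 of the 40 and 27 of the other mitosis genes. The number set as a block gave 32 and 40, the macrophage covariate 29, 26 and 6, and either number set alone 0, 0 and 0, with 3 exposed arrays against 3 naive, or 2 against 3. The title number as a replicate block, which leaves naive array 5 without a partner, called 24 of the 40, 14 of them among the 17, and 0 replication genes. The replicate number of the other label as a block called 18 of the 40, 11 of them among the 17, with 8 other mitosis genes and 0 replication genes. With 1 array left out the counts were 5 to 31, 1 to 30 and 0 to 4, and the mean difference of the 40 genes, 0.42 over all arrays, was 0.361 to 0.481. Over all genes, 195 were called higher and 121 lower. After a shift to a common 75th percentile these were 168 and 223, and 23 of the 40 mitosis genes were called, all 17 among them. Blocking by number set gave 365 and 252. The counts were 149 and 114 with median centring, 276 and 184 without dim genes, and 112 and 58 with the erythroid covariate. With the title number as a block they were 190 and 151, and with the other label's number 114 and 68. They were 7 and 4 in arrays 1 to 3, and 2 and 3 in arrays 4 to 6. With 1 array left out they were 68 to 232 and 36 to 163. The cause of these changes was not tested.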

Other observations

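Outside the 40 genes, the 5 whose deviations from the group means over the 11 arrays were most like those of the mitosis genes' mean were Ska3 (r = 0.973) and Dsn1 (r = 0.971), both kinetochore genes, then Aplf (r = 0.963), Nudt5 (r = 0.957) and Hars2 (r = 0.957). All points come from the same 11 arrays. Ska3 differed between exposed and naive cells by 0.50 and Dsn1 by 0.34, with adjusted p = 0.121 and 0.142 (limma), and Hars2 by -0.01, with adjusted p = 0.980.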
